A study of Homo sapiens with 3 samples.

Results

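The comparison described here sets Jurkat cells given oxamate together with lactate against untreated Jurkat cells. Jurkat is an established human line of T-lineage acute lymphoblastic leukaemia (T-ALL). The treated culture grew for 48 hours with 50 mM sodium oxamate supplemented with 10 mM L-sodium lactate, and the control culture grew for 48 hours in standard medium, both in RPMI medium with fetal bovine serum. Another culture, with 50 mM sodium oxamate alone for 48 hours, is used to place each value. All genes other than ERCC spike-ins that averaged 50 or more normalized counts across the 3 libraries were taken, which gave 12292 of 17329 genes. The question is which differences from control are present although lactate was supplied, and which values lie beyond control, on the side opposite to oxamate alone. Polyadenylated RNA of each condition was sequenced as 1 library, so there is no replicate spread, no test and no p-value, and "higher" and "lower" compare libraries.

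Oxamate is a pyruvate analogue that blocks lactate dehydrogenase, the enzyme that reduces pyruvate to lactate and regenerates NAD+ for glycolysis. Added lactate can enter the cell through monocarboxylate transporters and can serve as a source of lactyl groups for histone lactylation, the mark that the series is about. Oxamate was still present in the culture with lactate. The RNA values measure neither the enzyme's activity, nor lactate, nor the mark.

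3 promoter windows are shown because their genes stand for groups described with the values. ASNS stands for the amino acid response, which was lower than control in both treated libraries. EGR1 had the largest ratio to control of the named genes, and HSPA8 is a chaperone gene that was more than 2-fold above control with oxamate alone and near control with oxamate+lactate. Of the windows of each gene, the first that holds the motif marked in it was taken, so that a match was fixed by the choice. Each window is the 250 bases before a start site in RefSeq, build GRCh38.p14, given 5′ to 3′ on the gene's strand. They lie at chr7:97872409-97872658 on the minus strand for ASNS, chr5:138465229-138465478 on the plus strand for EGR1 and chr11:123062137-123062386 on the minus strand for HSPA8. Capitals mark matches on either strand to TGATGNAA, the core of the element that ATF4 and its partners bind, in ASNS, to the CArG box bound by serum response factor in EGR1, and to GAANNTTC, a pair of heat shock factor units, in HSPA8.
ASNS: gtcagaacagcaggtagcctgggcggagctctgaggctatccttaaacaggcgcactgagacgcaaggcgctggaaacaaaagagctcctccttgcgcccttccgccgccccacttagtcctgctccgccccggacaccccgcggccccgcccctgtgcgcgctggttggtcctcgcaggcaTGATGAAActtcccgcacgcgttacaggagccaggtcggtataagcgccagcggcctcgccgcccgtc
EGR1: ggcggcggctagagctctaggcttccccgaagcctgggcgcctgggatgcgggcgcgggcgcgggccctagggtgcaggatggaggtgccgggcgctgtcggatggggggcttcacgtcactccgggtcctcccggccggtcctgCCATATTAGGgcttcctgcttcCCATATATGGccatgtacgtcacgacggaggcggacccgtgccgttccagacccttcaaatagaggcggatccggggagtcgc
HSPA8: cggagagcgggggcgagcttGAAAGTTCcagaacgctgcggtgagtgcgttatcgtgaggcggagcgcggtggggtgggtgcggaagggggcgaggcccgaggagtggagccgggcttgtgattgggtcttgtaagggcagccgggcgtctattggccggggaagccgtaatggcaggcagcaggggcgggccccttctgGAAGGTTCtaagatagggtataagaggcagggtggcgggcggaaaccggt
The ASNS match begins 68 bases before the start site. EGR1 has 2 matches, which begin 105 and 83 bases before it, and HSPA8 has 2, at 230 and 50 bases. Of 31 genes of the amino acid response list with a window in the table, 7 hold TGATGNAA (22.6%), as do 3.89% of 27305 genes in all. Of 18 heat shock genes with a window, 9 hold GAANNTTC (50%), against 7.05% of all genes. A CArG box is in 2 of 19 windows of immediate early genes, EGR1 and SRF (10.5%), and in 1.44% of all. A match is a description of these letters, not a measured binding site. A gene counts if any of its windows holds the letters, and all genes include those under the floor. The lists were chosen by known function, so their shares are not independent of the motifs and say nothing of these libraries.

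The values are read counts per gene that the authors normalized and rounded. The reads behind each library are unknown, and so is the depth, which leaves no basis for a counting interval. Summed over all genes, the values came to 8220199 in control, 8821115 with oxamate and 8171633 with oxamate+lactate. Among 18 ERCC spike-in RNAs with a mean of at least 100, which were added to the RNA after its extraction from equal numbers of cells, log2 ratios of oxamate+lactate to control ran from -0.39 to 0.39 (SD 0.19), with a median of -0.08, and 0 reached 1.5-fold. Since they were added after extraction, this spread holds no difference between cultures. The median log2 ratio of all 12292 genes was -0.01 (SD 0.31), against 0.08 (SD 0.38) for oxamate against control. Of 13 markers of T-lineage identity, 11 passed the floor and none of these 11 differed by more than 0.39 on the log2 scale. CD28, also among the 13, fell short of the floor and did differ, at 3 in control, 66 with oxamate and 20 with oxamate+lactate. Of 30 markers of other cell types, 7 have a row and 2 passed the floor (COL1A1 and CD79A), and the 7 sum to 419 in control, 386 with oxamate and 357 with oxamate+lactate. Their part in any result was not tested. In such bulk libraries fewer cells of a type and less RNA per cell cannot be told apart.

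With oxamate+lactate, 67 genes were at least 2-fold higher than control (0.545% of the genes taken) and 42 were at least 2-fold lower (0.342%). After removal of a GC and length trend, 39 were higher and 44 lower. At 1.5-fold there were 367 higher (2.99%) and 377 lower (3.07%), and 507 higher and 266 lower when the libraries were scaled to equal ERCC sums. With oxamate alone the same thresholds gave 149 higher (1.21%) and 108 lower (0.879%) at 2-fold, and 920 higher (7.48%) and 489 lower (3.98%) at 1.5-fold. Most of the 2-fold genes have low values. Their mean over the libraries has a median of 84.7 for the higher and 106.5 for the lower genes, against 337 for all genes. Of those with a mean of at least 200, 14 were higher and 10 were lower.

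**Figure D1:**
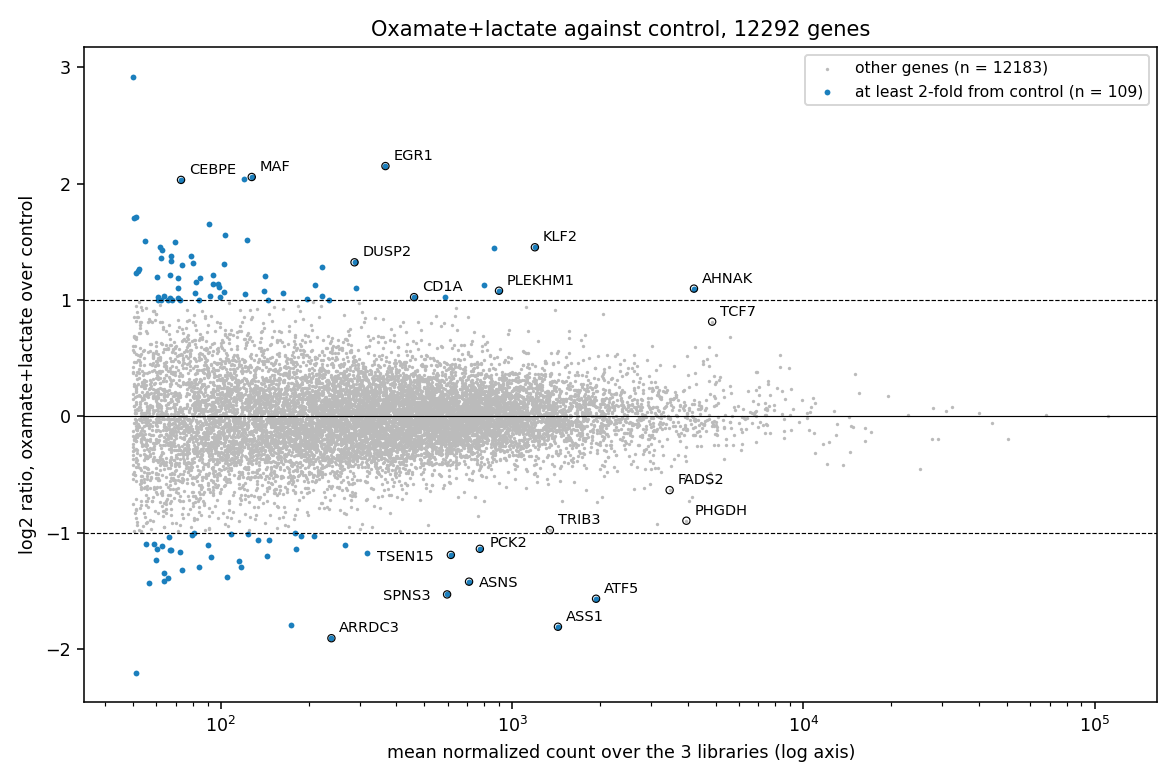
Each point is 1 gene, with its mean normalized count over the 3 libraries on a log axis (x) and its log2 ratio of oxamate+lactate over control (y). Dashed lines mark 2-fold, blue points are the 109 genes past it, and circled points are labelled genes. Among genes with a mean of at least 1000, ASS1 and ATF5 stand lowest and KLF2 and AHNAK highest, and the spread of ratios narrows toward high levels.

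The genes farthest from control were far from it with oxamate alone too. Of the 67 higher genes, 57 were also at least 2-fold higher with oxamate alone (0.464% of the genes taken), and the other 10 were 1.5- to 2-fold higher. Of the 42 lower genes, 31 were also at least 2-fold lower with oxamate alone (0.252%), 10 were 1.5- to 2-fold lower, and 1, CD8A, was less than 1.5-fold lower. The control library enters both ratios, so a value that is unusual in control alone places both treated libraries on the same side, and these counts describe the libraries only. Seen from oxamate alone, of the 149 genes that were 2-fold higher, 57 were still past 2-fold with lactate, 66 lay between 1.5- and 2-fold, and 26 under 1.5-fold. Of the 108 lower ones these numbers were 31, 63 and 14. The median log2 ratio of the 149 was 1.14 with oxamate and 0.86 with oxamate+lactate, and that of the 108 was -1.18 and -0.87. In each set 0 genes lay on the other side of control.

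**Figure D2:**
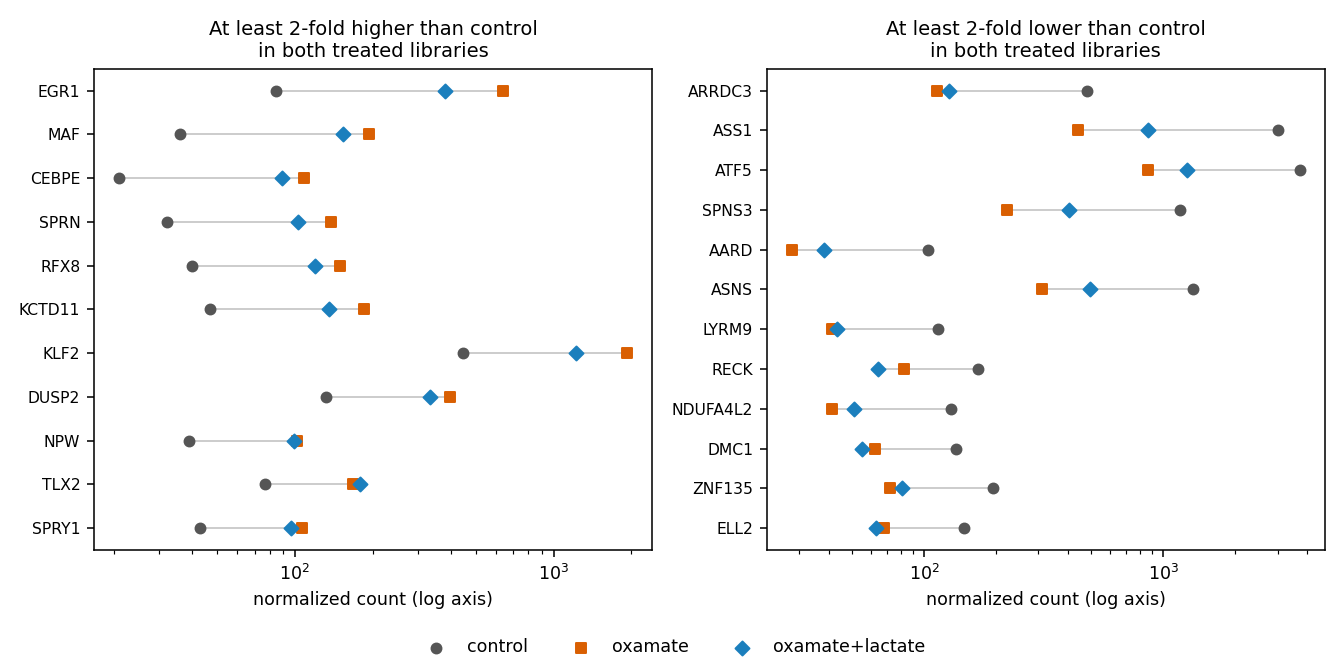
Normalized counts on a log axis (x) in control (circles), oxamate (squares) and oxamate+lactate (diamonds) for named genes with the largest ratios among those at least 2-fold higher (left) or lower (right) than control in both treated libraries. In most rows the oxamate+lactate value lies between those of the other libraries, and in TLX2, RECK, DMC1 and ELL2 it is the farthest from control.

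Part of the genes of amino acid supply were lower than control in oxamate+lactate. ATF4 is a transcription factor whose translation increases when amino acids run short, and its targets import and make amino acids and charge tRNAs. ATF4 itself had 4690 normalized counts in control, 3570 with oxamate and 3586 with oxamate+lactate, so that the treated libraries lay side by side below control. Of 37 genes of the amino acid response list over the floor, 12 were at least 1.5-fold lower and 0 higher, beside 3.07% and 2.99% of all genes. The list had a median log2 ratio of -0.34, against -0.01 for all genes and -0.61 for the same list with oxamate alone, and 32 of the 37 were under the all-gene median. ASNS, asparagine synthetase, had 1327, 312 and 495 in the same order, a log2 ratio to control of -1.42. ATF5, a related transcription factor, had 3713, 859 and 1252 (-1.57). ATF5 overlaps exons of IL4I1 and NUP62, and since the library kit does not mark strand, reads from such neighbours cannot be told apart. TRIB3, a pseudokinase that restrains ATF4, had 2282, 601 and 1159, just short of 2-fold lower (-0.98).

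Some enzymes of serine synthesis and transsulfuration were among the lower members. PHGDH, the first enzyme of serine synthesis, had 5926 in control, 2784 with oxamate and 3182 with oxamate+lactate (log2 ratio to control -0.90). PSAT1, the next enzyme, had 4875, 1953 and 2572 (-0.92), and CBS, which makes cystathionine from homocysteine, had 2077, 813 and 1066 (-0.96). These 3 high-level genes lay nearer to their oxamate value than to their control value. The last enzyme of serine synthesis, PSPH, had 487, 341 and 401 (-0.28), and CTH, which follows CBS, had 103, 99 and 86 (-0.26), so that both were within 1.5-fold of control. PCK2, mitochondrial phosphoenolpyruvate carboxykinase, had 1331, 389 and 604 (-1.14), and the glycine transporter gene SLC6A9, which overlaps CCDC24, had 279, 104 and 155 (-0.84). Other members lay at control. SESN2, a stress-induced inhibitor of mTORC1, had 600, 456 and 634 (0.08), and DDIT4 had 465, 395 and 456 (-0.03). PPP1R15A, which helps to switch off the stress response by dephosphorylating eIF2 alpha, had 207, 185 and 240 (0.21), above both other libraries. STC2, a secreted glycoprotein gene, had 920, 489 and 773 (-0.25). The list therefore held members far below control beside members at its level. Enzymes of arginine, proline and glutamine, a separate list, had a median of -0.03. Of these, 2 of 17 were at least 1.5-fold lower, ASS1 and ASNS, and 0 higher (3.07% and 2.99% of all genes). GOT1, a transaminase that makes aspartate, had 246, 307 and 336 (0.45), above control in both treated libraries.

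Of 23 genes of cytosolic aminoacyl-tRNA synthetases and their scaffold, 5 were at least 1.5-fold lower than control and 0 higher (3.07% and 2.99% of all genes), with a median of -0.29, and 18 of the 23 were under the all-gene median. The 5 were SARS, IARS, YARS (it overlaps S100PBP), AARS and CARS, which charge tRNAs with serine, isoleucine, tyrosine, alanine and cysteine. SARS had 2857, 1279 and 1715 (log2 ratio to control -0.74), and IARS had 5825, 2974 and 3599 (-0.69). AARS, whose product has also been described as a lactyltransferase, had 3972, 1971 and 2585 (-0.62). The subunits of phenylalanyl-tRNA synthetase differed from each other. FARSA had 1924, 2781 and 2444 (0.34) and FARSB had 772, 591 and 670 (-0.20). TARS, for threonine, had 2078, 1818 and 2067 (-0.01), at its control level.

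Other genes with low ratios had varied roles. ARRDC3, an arrestin-family gene on the list of MondoA targets, had 479 in control, 113 with oxamate and 127 with oxamate+lactate. Its log2 ratio to control was -1.91, and it was nearly the same in both treated libraries. The list has 11 genes over the floor, among them MLXIP, the gene of MondoA itself, and its partner MLX. Of the 11, ARRDC3 was the 1 at least 1.5-fold lower, and ARRDC2 was the 1 higher (3.07% and 2.99% of all genes). Relatives of ARRDC3 were at or above control with lactate. TXNIP had 748, 515 and 717 (-0.06), ARRDC4 had 105, 87 and 113 (0.105) and ARRDC2 had 189, 332 and 308 (0.70). ASS1, which makes argininosuccinate on the way to arginine, had 3011, 439 and 859 (-1.81), 3.50-fold lower than control with lactate and 6.85-fold lower without. SPNS3, a putative lipid transporter gene, had 1169, 221 and 404 (-1.53). TSEN15, a subunit of the tRNA splicing endonuclease, had 1024, 376 and 448 (-1.19), and GPCPD1, a glycerophosphodiesterase, had 544, 172 and 240 (-1.18). RECK, an inhibitor of matrix metalloproteinases, had 168, 82 and 64 (-1.38), and DMC1, the meiotic recombinase, had 136, 62 and 55 (-1.29), both lowest with lactate. NDUFA4L2 had 129, 41 and 51 (-1.32) and overlaps exons of SHMT2, while ZNF135 had 193, 72 and 81 (-1.24) and overlaps ZSCAN18.

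Immediate early genes are induced within minutes of receptor signalling, and several of them were higher than control in oxamate+lactate. Of 23 immediate early and T-cell activation genes over the floor, 8 were at least 1.5-fold higher and 0 lower (2.99% and 3.07% of all genes), 4 were at least 2-fold higher (0.545% of all genes), and the list median was 0.40 (0.56 with oxamate alone). EGR1, a zinc finger transcription factor, had 85 normalized counts in control, 636 with oxamate and 381 with oxamate+lactate, 4.44-fold above control. KLF2, a zinc finger factor that keeps T cells quiescent, had 446, 1922 and 1223 (log2 ratio to control 1.45). DUSP2, a nuclear phosphatase of MAP kinases, had 132, 399 and 332 (1.32), and SPRY1, an inhibitor of receptor signalling to MAP kinases, had 43, 107 and 97 (1.16). ZFP36L2, which destabilizes AU-rich mRNAs, had 1192, 2746 and 2200 (0.88), and its relative ZFP36 had 176, 357 and 297 (0.75). In all 6 the oxamate+lactate value lay between control and oxamate. Not all members followed: BTG2, an antiproliferative gene, had 55, 76 and 91 (0.72) and was highest with lactate. CD69, an early activation marker, had 83, 78 and 56 (-0.56), lowest with lactate. Near control were JUNB at 209, 272 and 229 (0.13), IER2 at 630, 846 and 705 (0.16) and FOSL2 at 65, 77 and 62 (-0.07). The list is mixed, and KLF2, a factor of quiescence, counts among the 8 higher genes.

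All 23 T-ALL transcription factor genes over the floor lay above the median of all genes, with ratios from 0.06 to 0.94. Only 3 of the 23 were at least 1.5-fold higher than control (2.99% of all genes). Their median was 0.30, against 0.48 with oxamate alone. TCF7, encoding T-cell factor TCF1, had 3013, 6269 and 5297 (log2 ratio to control 0.81) and overlaps SKP1. IKZF1, encoding Ikaros, had 2955, 5335 and 4473 (0.60). LMO1, an oncogenic partner of TAL1, had 36, 54 and 70 (0.94), low values that were highest with lactate. MYB had 3365, 4381 and 4304 (0.35), ETS1 had 7060, 7898 and 7997 (0.18) and LEF1 had 7309, 7757 and 7781 (0.09), so that these 3 were alike in both treated libraries. GFI1, a repressor of early T-cell genes, had 331, 338 and 415 (0.33), and ZEB1 had 504, 488 and 583 (0.21), and with oxamate alone both lay within 0.05 of control on the log2 scale. NOTCH1, the receptor gene most often mutated in T-ALL, had 1352, 2327 and 1716 (0.34), nearer to control than to oxamate.

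Of 17 NOTCH1 targets and receptors, 3 were at least 1.5-fold higher (TRIB2, CR2 and GIMAP5, which overlaps GIMAP1) and 1 lower (2.99% and 3.07% of all genes), with a median of 0.34 (0.63 with oxamate alone). TRIB2, a pseudokinase, had 264, 542 and 463 (log2 ratio to control 0.81). MYC, which is on this list and 3 others, had 2739, 5299 and 3922 (0.52), while HES1, a repressor induced by Notch signalling, had 55, 98 and 82 (0.57). The lower one was NOTCH2NL, at 125, 89 and 73 (-0.77), a partial copy of NOTCH2, so that its reads may be shared with NOTCH2 (1342, 1451 and 1278). In the wider list of the MYC network and ribosome biogenesis 3 of 34 genes were at least 1.5-fold higher (2.99% of all genes) and 0 lower. These were MYCN (38, 92 and 83), the MYC antagonist MXD4 (325, 684 and 566) and POLR1C (235, 453 and 378; it overlaps XPO5 and 2 other genes). The list median was 0.15, against 0.39 with oxamate alone.

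Markers of cortical thymocytes went both ways. Cortical thymocytes carry CD1 molecules and rearrange their receptor genes with the RAG recombinase. CD1A had 230, 683 and 469 (log2 ratio to control 1.02), CD1E had 67, 157 and 140 (1.05), while DNTT, a polymerase that adds nucleotides at the joints, had 1033, 1950 and 1723 (0.74). RAG1 had 2816, 1795 and 2087 (-0.43) and RAG2, which overlaps it and C11orf74, had 959, 669 and 704 (-0.45). CD1A, CD1E and DNTT were thus above control and the RAG pair below it in both treated libraries, while CD1C had low values of 51, 58 and 45 (-0.18). Of 14 genes on this list 3 were at least 1.5-fold higher and 0 lower (2.99% and 3.07% of all genes). IGLL1, the surrogate light chain gene of early lymphocytes, named after its value was seen, had 102, 306 and 224 (1.13). On the list of the T-cell receptor and T lineage, 1 of 21 genes passed 1.5-fold, CD8A, a co-receptor subunit, at 74, 58 and 34 (-1.10). CD3E had 4488, 4128 and 4011 (-0.16), and LCK, the kinase that starts receptor signalling, had 3316, 4368 and 3861 (0.22).

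Surface and homing receptors held genes at both ends. Of 19 over the floor, 3 were at least 1.5-fold higher and 3 lower (2.99% and 3.07% of all genes). CNR2, a cannabinoid receptor gene, had 136, 447 and 293 (log2 ratio to control 1.10), between control and oxamate with lactate. FAS, the death receptor (it overlaps ACTA2), had 162, 110 and 90 (-0.84), and the integrin genes ITGA6 and ITGB7 had 674, 364 and 409 (-0.72) and 89, 44 and 53 (-0.74; ITGB7 overlaps ZNF740). FAS was lowest with lactate, and both integrin genes were lowest with oxamate alone.

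Several further transcription factor genes had high ratios to control. MAF, a factor of helper T cells, had 36, 194 and 153 (log2 ratio to control 2.06). CEBPE, a myeloid factor, had 21, 109 and 89 (2.03), RFX8 had 40, 149 and 120 (1.56), and the homeobox gene TLX2 had 77, 168 and 179 (1.21). The control values of these 4 were all under 100. Among genes with a mean of at least 1000, AHNAK, a giant scaffold protein, had 2114, 5987 and 4526, 2.14-fold above control. At levels under that limit, PLEKHM1, an adaptor of late endosomes, had 473, 1230 and 1001 (1.08). RAP1GAP2, which inactivates the small GTPase Rap1, was also under it, at 394, 1140 and 865 (1.13). AHNAK and PLEKHM1 were named after their values were seen.

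**Figure D3:**
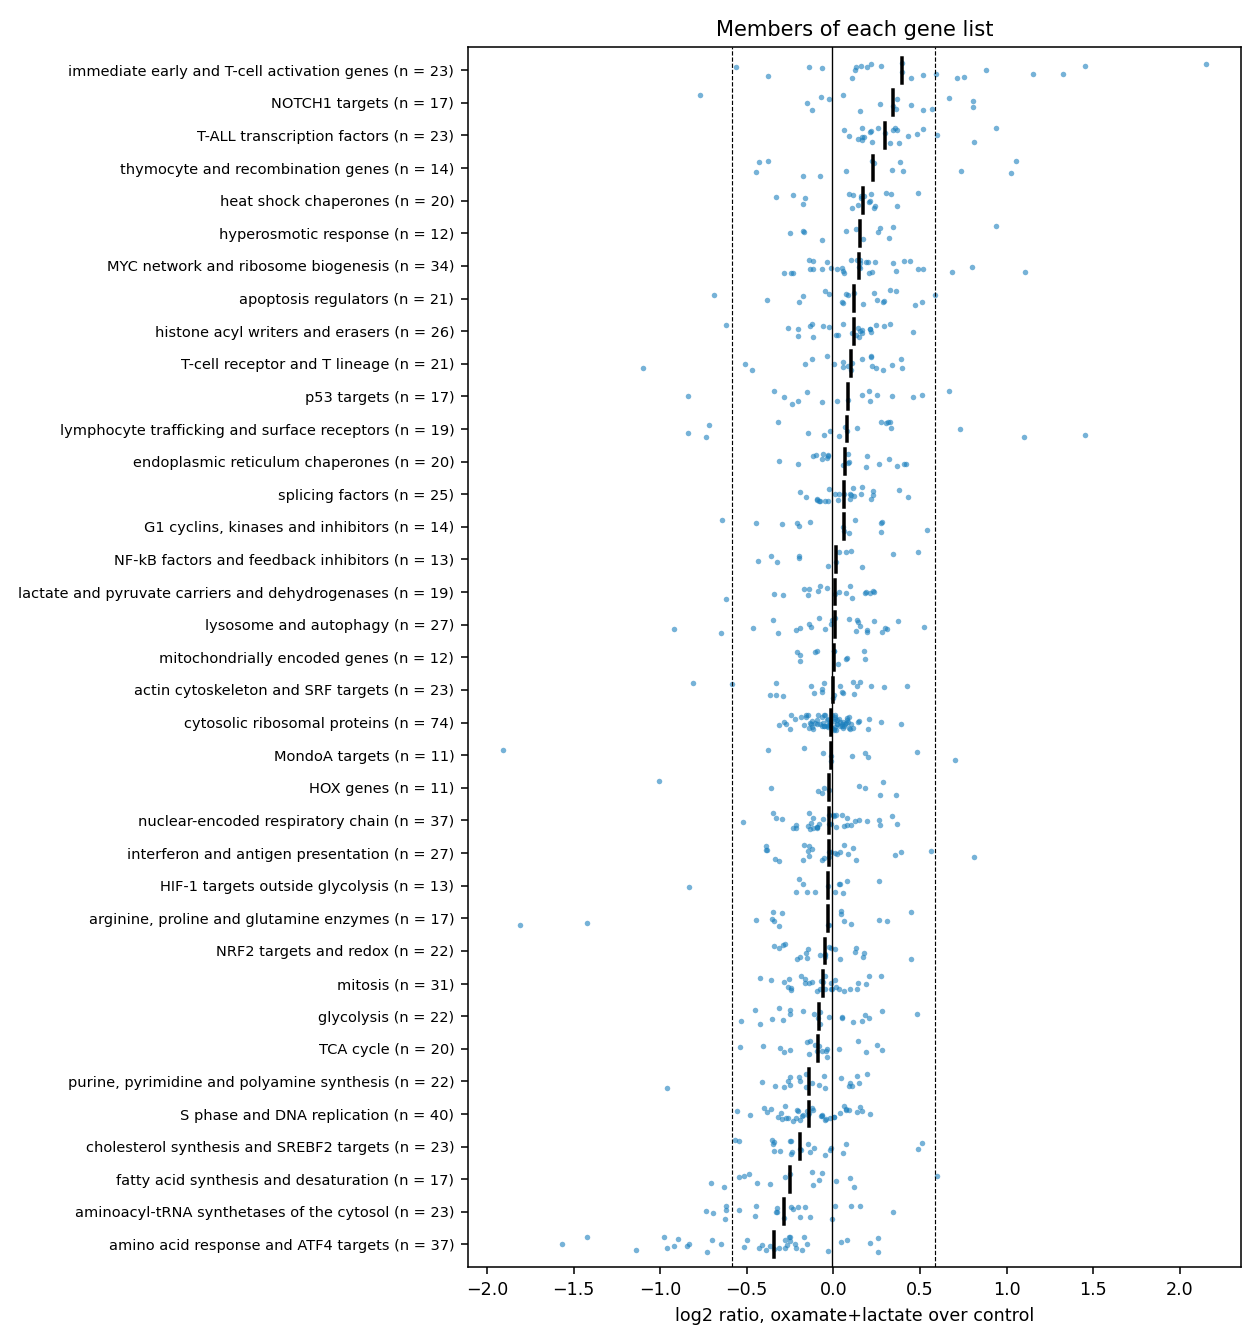
Each point is 1 gene and its log2 ratio of oxamate+lactate over control (x), in rows of gene lists with their number of members over the floor. Thick bars are list medians, the solid line is the median of all genes and dashed lines mark 1.5-fold. The medians run from -0.34 for the amino acid response to 0.40 for immediate early genes, and the amino acid response, tRNA synthetases, fatty acid and cholesterol synthesis are the lowest 4 of the lists drawn, which leave out the 2 markers of other cell types.

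Heat shock chaperones lay close to control with lactate. HSPA8, the constitutive cytosolic HSP70, had 5996 in control, 14220 with oxamate and 7073 with oxamate+lactate (log2 ratio to control 0.24). HSP90AB1, a cytosolic HSP90, had 12353, 19814 and 14228 (0.20), and HSPH1, an exchange factor of HSP70, had 991, 1582 and 1095 (0.14). Of 20 genes on the list, 0 were at least 1.5-fold from control, beside 2.99% of all genes higher and 3.07% lower. With oxamate alone 7 were at least 1.5-fold higher (7.48% of all genes). The median was 0.17, above the -0.01 of all genes, and 16 of 20 lay above the median of all genes. DNAJA1, a co-chaperone, had the ratio farthest from control at 1185, 2415 and 1661 (0.49). The mitochondrial chaperones were on the other side of control, HSPA9 with 3935, 2812 and 3130 (-0.33) and HSPD1 with 6486, 6451 and 5508 (-0.24; it overlaps HSPE1). The median of endoplasmic reticulum chaperones was 0.07, with 0 of 20 past 1.5-fold (2.99% of all genes higher and 3.07% lower). Calreticulin (CALR) was highest, at 6860, 10728 and 9171 (0.42), and BiP (HSPA5) had 1767, 3325 and 2278 (0.37).

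Cholesterol synthesis genes lay beyond control by their median. SREBF2 encodes the transcription factor that senses sterols and drives these genes. The list had a median log2 ratio to control of 0.19 with oxamate and -0.19 with oxamate+lactate. Of its 23 genes over the floor, 19 were under the all-gene median, although 0 were 1.5-fold lower (3.07% of all genes). DHCR7, the last reductase of the pathway, had 1208 in control, 1872 with oxamate and 1195 with oxamate+lactate (-0.02), so that it was at control. LSS, lanosterol synthase, had 2093, 2687 and 1763 (-0.25), and IDI1, which isomerizes isopentenyl diphosphate, had 689, 810 and 544 (-0.34). Both were above control with oxamate and below it with oxamate+lactate. HMGCS1, which makes HMG-CoA, had 998, 1029 and 672 (-0.57), and MVD, of the mevalonate pathway, had 829, 789 and 567 (-0.55), so that these 2 were near control with oxamate and lowest with lactate. PMVK (201, 305 and 283) and NSDHL (138, 219 and 197) were above control in both treated libraries.

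Counted without a size threshold, 13 of the 23 cholesterol genes (56.5%) were above control with oxamate and below control with oxamate+lactate, as were 15.2% of all genes, and 0 went the opposite way (3.77% of all genes). Relative to the median of all genes in each library, the numbers were 10 of 23 (43.5%) and 1 of 23, against 8.51% of all genes in each direction. All of these ratios share the control library, and of the 13 genes HMGCS1 is the 1 whose ratio lies outside the range of the spike-ins. Among fatty acid genes, 6 of 17 went from above to below control (35.3%). SCD, the stearoyl-CoA desaturase, had 5650, 6017 and 4390 (log2 ratio to control -0.36), and ACACA, acetyl-CoA carboxylase, had 2086, 2451 and 1754 (-0.25). FASN, fatty acid synthase, had 3836, 7130 and 4098 (0.10), back near control. FADS2, a desaturase of polyunsaturated fatty acids, had 4122, 3640 and 2656 (-0.63) and was 1 of 2 members at least 1.5-fold lower (3.07% of all genes). FADS2 overlaps exons of FADS1 (2532, 2685 and 2086) and FEN1. The other was the elongase ELOVL6, at 167, 79 and 102 (-0.71). The elongase ELOVL5 had 3270, 6049 and 4955 (0.60) and was the 1 member at least 1.5-fold higher (2.99% of all genes). The fatty acid median was -0.25, against 0.09 with oxamate alone.

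**Figure D4:**
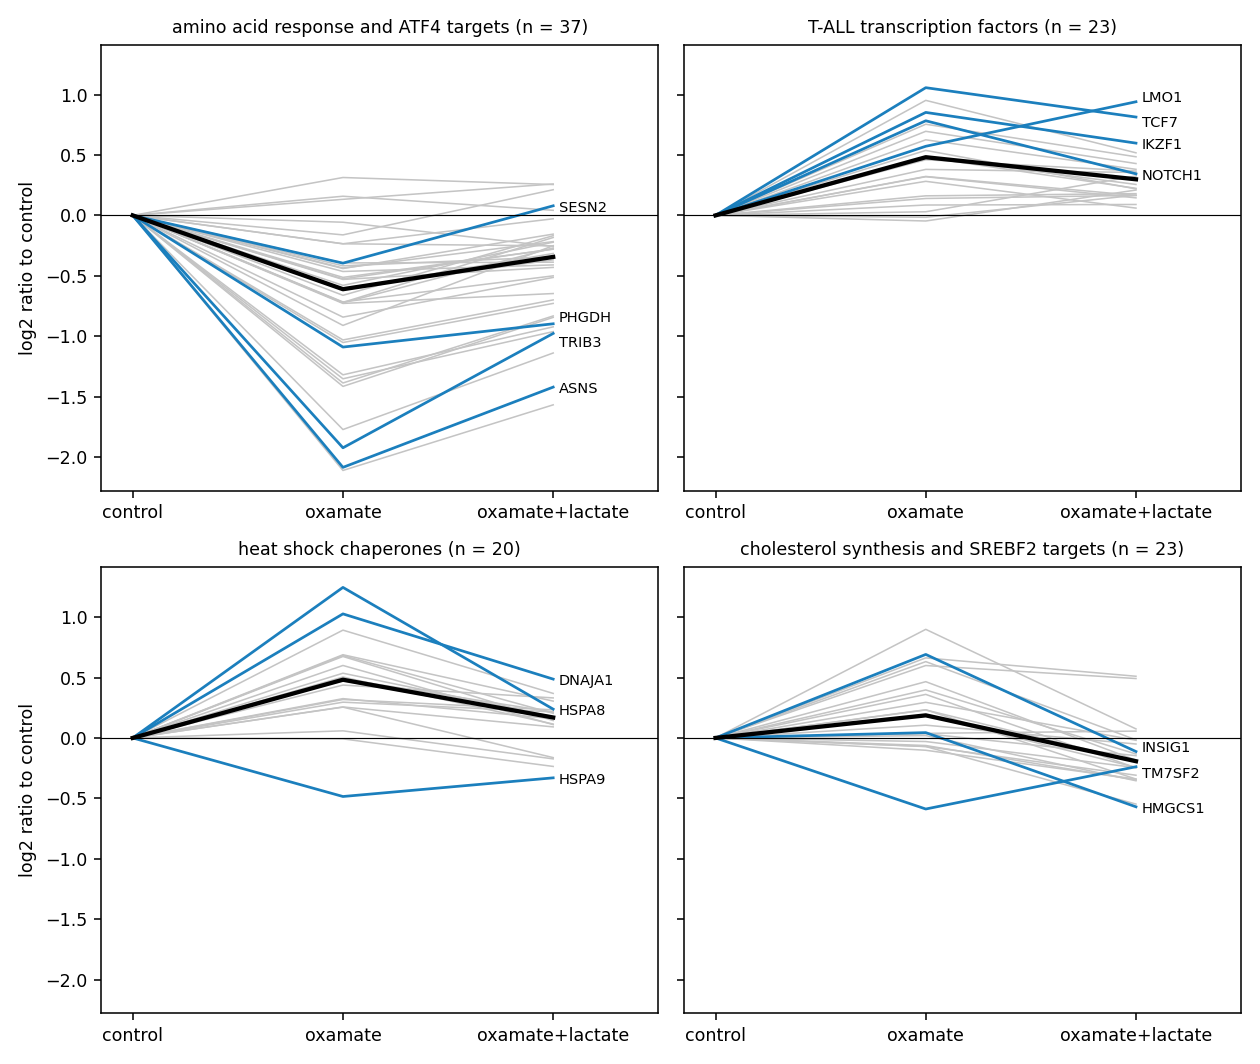
Log2 ratio to control (y) in the control, oxamate and oxamate+lactate libraries for the members of 4 gene lists, with 1 line per gene, named genes in blue and the list median in black. The black line ends at -0.34 for the amino acid response, 0.30 for T-ALL transcription factors, 0.17 for heat shock chaperones and -0.19, below control, for cholesterol synthesis.

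Single genes rarely lay beyond control by the threshold set. The threshold is smaller than the largest spike-in ratios of oxamate+lactate to control (-0.39 and 0.39). The counts made with it here therefore only describe the libraries. With a threshold of 0.32 on the log2 scale on either side, 3 genes (0.0244%) were above control with oxamate and below it with oxamate+lactate, and 0 (0.0%) were the other way round. The 3 were WDR92, a WD repeat protein (it overlaps AC017083.3), at 71, 91 and 55, and 2 transcripts known by clone names, and they are named because they are all there were. A larger set was farther from control than with oxamate alone. At least 1.5-fold from control and at least 0.32 on the log2 scale beyond the oxamate value were 22 genes on the higher side (0.179%) and 48 on the lower side (0.39%). This split depends on the scaling: it was 36 to 23 at equal sums over genes, 38 to 23 at equal ERCC sums and 33 to 26 with the median ratio set to 0.

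Most of these genes have values near 100. On the higher side, RNF144B, a ubiquitin ligase, had 58 in control, 96 with oxamate and 129 with oxamate+lactate (log2 ratio to control 1.14), and EBF4, a member of the early B-cell factor family, had 60, 100 and 133 (1.14). N4BP2L1 had 95, 97 and 159 (0.74), so that control and oxamate lay side by side below oxamate+lactate. The tubulin ligase gene TTLL7 had 66, 91 and 121 (0.86), and ISL2, a homeobox gene, had 74, 98 and 127 (0.77). On the lower side, besides RECK and FADS2, FANCB, a gene of the Fanconi DNA repair complex, had 111, 98 and 64 (-0.78), HAPLN3, a hyaluronan link protein, had 98, 103 and 62 (-0.65), and PDE5A, a phosphodiesterase of cyclic GMP, had 187, 154 and 118 (-0.66). HAPLN3 was below control only with lactate, and PDE5A was in between with oxamate alone.

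**Figure D5:**
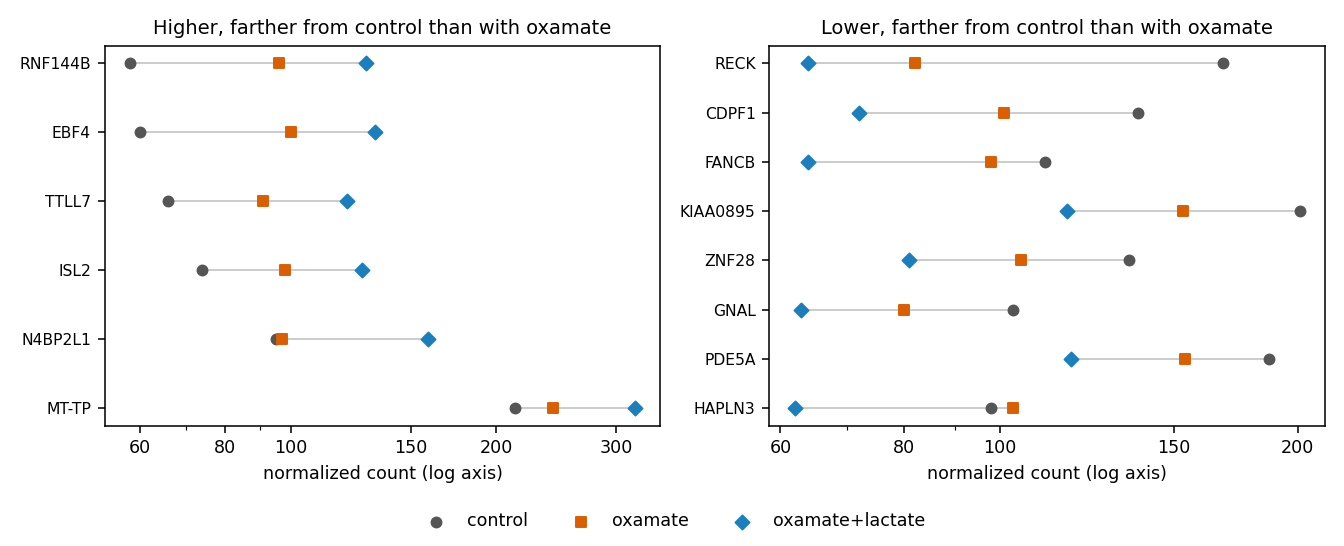
Normalized counts on a log axis (x) in the 3 libraries for the named genes that were farther from control with oxamate+lactate than with oxamate alone, higher (left) and lower (right). In each row the diamond of oxamate+lactate is the outermost point, and all but the transfer RNA gene MT-TP and N4BP2L1 stay under 150 on the left.

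Genes of the pathway that oxamate blocks differed little from control. LDHA and LDHB, the subunits of lactate dehydrogenase, had 4937, 4952 and 4648 (log2 ratio to control -0.09) and 7383, 7363 and 7000 (-0.08; LDHB overlaps AC010197.2). The lactate carrier gene SLC16A1 had 1180, 1427 and 1190 (0.01). Of 22 glycolysis genes 0 were 1.5-fold from control, with a median of -0.08. Over all genes, 2.99% were at least 1.5-fold higher and 3.07% lower. GAPDH had 30341, 22640 and 22181 (-0.45), below control and alike in both treated libraries, and PFKFB3, which makes an activator of glycolysis, had 519, 742 and 725 (0.48), above it. Of 19 carriers and dehydrogenases of lactate and pyruvate, 1 was past 1.5-fold: PDK1, a kinase that inactivates pyruvate dehydrogenase, at 508, 283 and 330 (-0.62). The TCA cycle had a median of -0.09, mitochondrially encoded genes 0.00, the nuclear-encoded respiratory chain -0.03 and cytosolic ribosomal proteins -0.01, with 0 genes past 1.5-fold in each of these 4 lists. Of 26 histone acyl writers and erasers 1, AARS, was past 1.5-fold. EP300, an acetyltransferase that can also transfer lactyl groups, had 1164, 1548 and 1287 (0.14), and the deacetylase gene HDAC4 had 1931, 3252 and 2660 (0.46).

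Genes of DNA replication had a median of -0.14, with 29 of 40 below the median of all genes and 0 past 1.5-fold. Over all genes, 2.99% were at least 1.5-fold higher and 3.07% lower. RRM2, a subunit of ribonucleotide reductase (it overlaps AC007240.1), had 2372, 2056 and 1819 (log2 ratio to control -0.38), lowest with lactate. E2F1 had 812, 1039 and 941 (0.21). Mitosis genes had a median of -0.06 with 0 of 31 past 1.5-fold, beside the same shares of all genes. Among G1 regulators the cyclin genes CCND2 and CCND3 differed in direction, at 698, 428 and 447 (-0.64; CCND2 overlaps AC008012.1) and at 1651, 2832 and 2400 (0.54).

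The higher genes differed from all genes in GC content, which the choice did not use, and the lower genes did not by their median. Median GC content was 56.0% for the 67 higher genes, 48.2% for the 42 lower ones and 48.2% for all genes. Across 11214 genes with a GC content, the Spearman correlation of the ratio with GC content was 0.24. This describes genes of the same 2 libraries, and its part in single ratios was not tested. Known protein-coding genes made up 73.1% of the higher, 83.3% of the lower and 86.3% of all genes. These shares count genes whose symbol found no gene type as not protein-coding. Among genes with a gene type, 49 of 54 higher, 35 of 37 lower and 10607 of 11214 in all were protein-coding.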

How the data were processed

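Polyadenylated RNA of Jurkat cells was measured in 3 libraries, 1 per condition. FastQC 0.11.9, STAR 2.7.1a, HTSeq 0.11.2 and hg19 are named, with no role or order, in the submitters' processing notes. The authors deposited 1 table of normalized counts, whole numbers that were treated as a score and not as raw counts, so no count model was fitted. The normalization, annotation and gene filter are unstated in these sources. Of 17365 rows, 36 are ERCC spike-ins and 9 carry a date in place of a symbol, and neither are named.

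Ratios are log2((value + 1)/(value + 1)), with a pseudocount of 1, which understates the change of low genes. Python 3.11.15 with numpy 2.4.6, pandas 2.3.3 and scipy 1.17.1 was used. The computation was tested on simulated libraries. Thresholds of 2-fold, 1.5-fold and 0.32 on the log2 scale stand in place of a test. Nothing says how many cultures stand behind a library.

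Members, 38 gene lists and rules were chosen with earlier results of these data known. Named genes were the 15 highest and 15 lowest ratios among symbols reaching 100, leading genes of each class, the 3 highest and 3 lowest of each list and 15 genes fixed by name. Further list members and genes marked as such were chosen after their values were seen. Gene type, GC content, length and exon overlap came from GENCODE 29 and promoter windows from RefSeq, both on another build than the files, matched by symbol (91.2% of genes had a GC content). A few genes that the rule names are not reported here.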

Additional observations from a re-analysis of the deposited data

How the results depend on the processing

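Counts of single genes depended on the floor. With a floor of 200 in place of 50, the 2-fold counts were 14 higher and 10 lower, the 1.5-fold counts 120 and 100, and those 2-fold from control in both treated libraries 12 and 8. Genes beyond control on the lower side were then 0, and genes farther than with oxamate alone 4 higher and 4 lower. With no floor these were 643 and 609, 1480 and 1549, 439 and 352, 64 higher and 110 lower beyond control, and 430 and 566 farther. With a pseudocount of 10, 44 genes were 2-fold higher, 35 of them in both treated libraries by the same rule, and 29 were farther on the lower side. With the GC and length trend removed, 39 were 2-fold higher and 33 were so in both.

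Genes beyond control were few under each scaling: 2 higher and 0 lower at equal sums over genes, 1 lower at equal ERCC sums, and 1 higher and 0 lower with the median ratio set to 0. Without a size threshold, an alternative chosen after seeing the data, they were 463 higher and 1865 lower. Genes farther than with oxamate alone were 36 higher and 23 lower at equal sums, 38 and 23 at equal ERCC sums, and 26 lower with the median set to 0. The causes were not tested.

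Of 303 recomputed list medians, 302 moved by less than the limit set, 1 moved and 0 reversed. These counts do not mean that each sign held. The median of all genes was -0.01 in the main setting and 0.06 at equal ERCC sums. The sign of list medians near 0 therefore depends on the scaling. Of 1742 recomputed gene ratios 3 moved (CEBPE, MAF and SPRN, with a pseudocount of 10) and 0 reversed. There was no replicate to leave out. No paired analysis was possible because each condition has 1 library. Unknown depth and 1 library per condition limit each value.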

Other observations

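CD28, the co-stimulatory receptor of T cells, fell short of the floor, at 3 normalized counts in control, 66 with oxamate and 20 with oxamate+lactate, lowest in control and highest with oxamate alone.

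Other gene groups held few genes far from control. Over all genes, 2.99% were at least 1.5-fold higher than control and 3.07% at least 1.5-fold lower. These shares stand beside each count here and in the paragraph that follows. Counts of 1 or 2 members are not read as a result about a list. Of 21 apoptosis regulators, BID, which links death receptors to mitochondria, had 397, 664 and 597 in the same order (log2 ratio to control 0.59), and HRK, a BH3-only gene, had 107, 45 and 66 (-0.69). These were the 1 member at least 1.5-fold higher and the 1 lower. Of 12 genes of the hyperosmotic response, 1 passed 1.5-fold: SLC6A6, the taurine transporter, which overlaps GRIP2, had 601, 1597 and 1154 (0.94), with a list median of 0.15. Of 27 lysosome and autophagy genes 2 were lower. GABARAPL1, of the autophagosome, had 207, 110 and 109 (-0.92), and TFEB, the factor that drives lysosomal genes, had 104, 70 and 66 (-0.65). Both were alike in the treated libraries.

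Among 22 genes of nucleotide and polyamine synthesis, SAT1, which acetylates polyamines for export, had 141, 60 and 72 (-0.96). VEGFA, of 13 genes on the HIF-1 list (HIF1A among them) the 1 past 1.5-fold, had 590, 225 and 331 (-0.83). ISG20, an interferon-induced exonuclease, had 44, 52 and 78 (0.81), highest with lactate, and was the 1 of 27 interferon and antigen presentation genes past 1.5-fold. HOXB9 had 186, 47 and 92 (-1.01), and the other 10 of 11 HOX genes were within 1.5-fold of control. In each of these lists the remaining members lay within 1.5-fold.

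The remaining lists had medians near that of all genes. They were -0.05 for NRF2 targets, 0.01 for NF-kB factors, 0.06 for splicing factors, 0.08 for p53 targets and 0.00 for actin and SRF targets. The arginine, proline and glutamine enzymes had a mean of -0.24 beside a median of -0.03.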
